A study of Gossypium hirsutum with 6 samples.

Results

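In the ovules of the upland cotton (*Gossypium hirsutum*) line Xu142, 71 of the 65894 genes of the expression table had transcript in every library while the fiberless mutant *Xu142fl* was listed at 0 in every library. The genes were chosen by their values, with at least 0.5 FPKM in each of the 3 Xu142 libraries and 0 FPKM in each of the 3 *Xu142fl* libraries. FPKM scales the fragments counted for a gene by its transcript length and by the mapped reads of the library. The difference between the lines is therefore what chose these genes, and it is given below as a description with no test. The stretches of chromosomes A12 and D12 around the fiber gene MML3 were left out by the rule, and 0 of the 271 genes listed there met both limits. The 71 genes comprise 43 annotated genes placed on chromosomes, 1 annotated gene on an unplaced scaffold and 27 genes that the authors predicted anew from the reads. No gene ID of the 71 is paired with a name in the sources used here, and the RefSeq gene table of cotton matched 0 of them, so they are called by their IDs. No sequence is shown for the same reason.

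Cotton fibers are single cells that grow out of the epidermis of the ovule, the structure that becomes the seed. Upland cotton is an allotetraploid with an A and a D subgenome, so most genes exist as a pair of similar copies called homoeologs, 1 in each subgenome. The letter and number after "Gh_" give the chromosome of the reference line TM-1, and the number at the end gives the place of a gene in the order along it. Reads of both lines were aligned to TM-1, a line that differs from both, and the values report transcripts as far as they fit its gene models.

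Each library was made from field-grown ovules collected at -3 and -1 DPA (days post anthesis) and mixed, from the wild type Xu142 or from its fiberless mutant *Xu142fl*, with 3 biological replicates of each. The share of each day in a mixture is not given in the sources used here. Between 9.48% and 11.1% of the listed genes were at 0 in a library, and the smallest value above 0 was 0.01 FPKM. Xu142 replicate 2 and *Xu142fl* replicate 1 stood apart. In Xu142 replicate 2, 132 genes were at 0 although both other Xu142 libraries had at least 0.5 FPKM, against 65 and 61 such genes in replicates 1 and 3. In *Xu142fl* replicate 1 there were 148 such genes, against 46 and 62 in replicates 2 and 3. A value of 0 in a library thus also occurred among replicates of a line. The MML3 gene on D12 (Gh_D12G1628), a MYB transcription factor gene of fiber initiation, had 61.49, 54.55 and 51.83 FPKM in Xu142 and 0.18, 0.37 and 0.28 FPKM in *Xu142fl*. It was detected in all 6 libraries. This gene also lies in a stretch that the rule left out, so it could not be among the 71. The files hold no read counts, so the depth behind a value of 0 is unknown and no fold change against *Xu142fl* is given for these genes. In RNA of whole ovules, fewer cells that express a gene and less RNA per cell cannot be told apart.

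The highest level belonged to Gh_A13G1728, with 89.77, 100.64 and 84.94 FPKM in Xu142 replicates 1 to 3. Its mean was 91.8 ± 8.04 FPKM (SD, n = 3). Gh_D12G1439 followed with 36.16, 43.20 and 36.75 FPKM. Both genes had their highest value in Xu142 replicate 2. Gh_D04G0240 had 13.23, 15.66 and 16.18 FPKM, and Gh_A05G1426 had 13.79, 14.47 and 13.88 FPKM. The latter was the most uniform of all 71 genes, with a coefficient of variation (CV, the SD as a percentage of the mean) of 2.63%. Gh_D07G2461 had 20.19, 5.34 and 13.33 FPKM, a CV of 57.4%, and its lowest value came from Xu142 replicate 2.

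Among the annotated genes between 5 and 10 FPKM, Gh_A06G0425 had 9.82, 8.07 and 11.84 FPKM, Gh_D02G0706 had 10.22, 8.42 and 8.53 FPKM, and Gh_D07G2323 had 9.85, 6.39 and 10.69 FPKM. Gh_D06G1522 had 8.79, 6.89 and 6.97 FPKM. Gh_A13G1727, whose ID directly precedes that of the most abundant gene, had 6.06, 3.90 and 6.53 FPKM. In all 5 of these genes Xu142 replicate 2 was the lowest library. The most abundant predicted gene, BGI_novel_G004414, had 9.65, 9.36 and 13.04 FPKM. BGI_novel_G003763 had 7.58, 5.0 and 7.07 FPKM, and BGI_novel_G004005 had 7.14, 6.08 and 6.13 FPKM. BGI_novel_G001225 had 4.92, 5.60 and 6.23 FPKM, and BGI_novel_G000770 had 5.75, 2.23 and 6.14 FPKM. The predicted genes thus reached a mean of 10.7 FPKM at most, below the 5 highest annotated genes.

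Most of the 71 genes were weakly expressed. Their mean FPKM in Xu142 had a median of 1.85 and ran from 0.640 to 91.8. It was 10 FPKM or more in 6 genes, 5 to 10 in 10 genes, 2 to 5 in 16 genes and under 2 in 39 genes, 10 of which lay under 1. The annotated genes on chromosomes had a median of 1.93 FPKM and the predicted genes 1.62 FPKM. The 71 genes together made up 0.0423%, 0.0403% and 0.0434% of the summed FPKM of Xu142 replicates 1 to 3. Gh_A13G1728 alone held 25.1%, 30.2% and 23.3% of their sum, and in each library the 10 highest genes held between 59.7% and 65.7%.

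**Figure D1:**
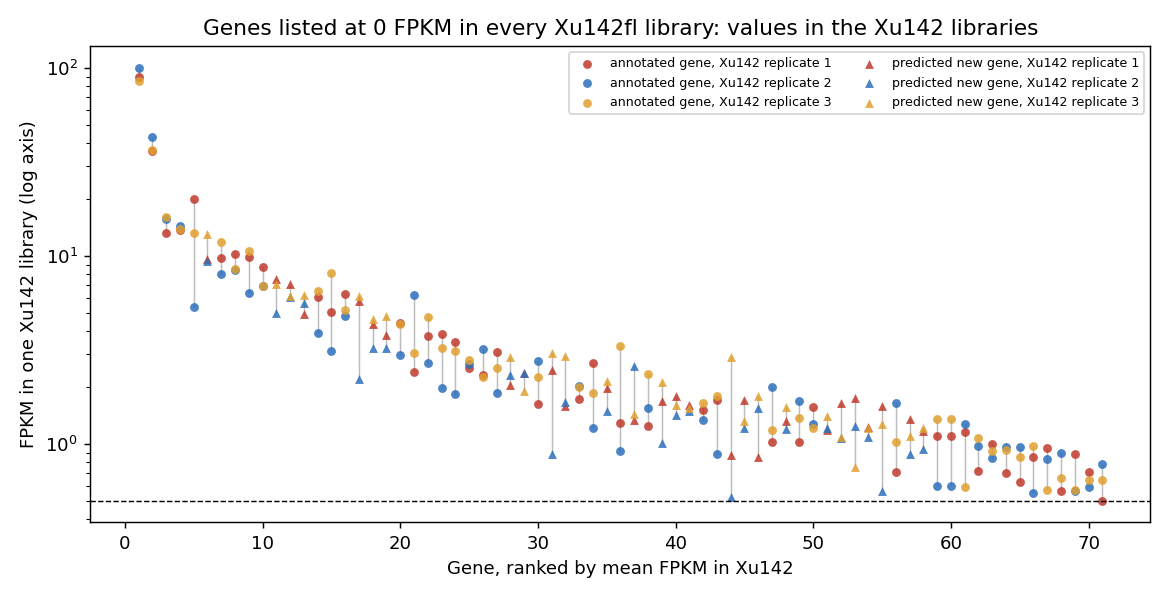
FPKM of each of the 71 genes in the 3 Xu142 libraries on a log axis, with genes ranked by their mean, circles for annotated and triangles for predicted genes, a grey line over the range of a gene and a dashed line at the limit of 0.5 FPKM. Gh_A13G1728 and Gh_D12G1439 stand above the rest, 39 genes have a mean under 2 FPKM, and replicate 2 (blue) is the lowest library in 42 genes.

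The values varied among the Xu142 libraries, with a median CV of 21.6% over the 71 genes. Of the 46567 genes with at least 0.5 FPKM in each Xu142 library and a value above 0 in each *Xu142fl* library, the median CV was 11.1%. Within each broad class of level the Xu142-only genes also had the higher median CV, though levels within a class can differ. Under 2 FPKM the median CV was 24.8% for the 39 Xu142-only genes and 19.9% for the detected genes. Between 2 and 10 FPKM it was 20.7% for 26 Xu142-only genes, 16 of them under 5 FPKM, and 12.4% for the detected genes. From 10 FPKM it was 10.3% for only 6 Xu142-only genes and 8.28% for the detected genes. The widest spread was that of BGI_novel_G001568, with 0.87, 0.52 and 2.91 FPKM and a CV of 90.1%. Xu142 replicate 2 had the lowest of the 3 values in 42 of the 71 genes (59.2%) and the highest in 16 (22.5%). In the detected genes it was the lowest in 49.9% and the highest in 31.9%. The median log2 ratio of replicate 2 to the mean of replicates 1 and 3 was -0.24 for the 71 genes and -0.08 for the detected genes. No test was made of these differences.

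At the edge of the rule, the 3 genes just inside the lower limit were Gh_D07G1388 (0.50, 0.78 and 0.64 FPKM in Xu142), BGI_novel_G001568 and Gh_D02G0232 (0.85, 0.55 and 0.98 FPKM). The 3 genes just outside it, also at 0 in *Xu142fl*, were Gh_D10G1145 (0.61, 0.48 and 0.97 FPKM), Gh_A13G1313 (0.47, 0.70 and 0.63 FPKM) and Gh_A02G0399 (0.49, 0.46 and 0.94 FPKM). The genes on either side of the lower limit therefore differed by hundredths of an FPKM.

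The limit of 0 in *Xu142fl* also had genes just beyond it. BGI_novel_G004803 had 1.44, 1.40 and 0.98 FPKM in Xu142 and 0, 0 and 0.01 FPKM in *Xu142fl*. Gh_D08G2655 had 38.03, 48.04 and 39.05 FPKM in Xu142 and 0.02, 0 and 0.02 FPKM in *Xu142fl*. BGI_novel_G001188 had 5.04, 3.52 and 5.03 FPKM in Xu142 and 0.02, 0 and 0 FPKM in *Xu142fl*. Outside the left-out stretches, 18 genes that met the Xu142 limit had a highest *Xu142fl* value above 0 and at most 0.05 FPKM, and 40 had at most 0.1 FPKM. The most abundant of these 40, Gh_A06G1157, had 157.56, 115.70 and 144.85 FPKM in Xu142 and 0.06, 0 and 0 FPKM in *Xu142fl*, a level in Xu142 above that of every gene listed at 0.

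Of the 46891 genes with at least 0.5 FPKM in every Xu142 library, the 71 made up 0.151% (95% Wilson interval 0.120 to 0.191). The share was 0.530% (10 of 1887 genes) at a mean of 0.5 to 1 FPKM and 0.565% (29 of 5135) at 1 to 2 FPKM. It was 0.153% (16 of 10482) at 2 to 5 FPKM, 0.0954% (10 of 10477) at 5 to 10 FPKM and 0.0317% (6 of 18910) from 10 FPKM, with an interval of 0.0145 to 0.0692. A listing at 0 in *Xu142fl* was thus rarer at each step of level above 2 FPKM. With the lines exchanged, 55 of 46130 genes (0.119%, interval 0.0916 to 0.155) had at least 0.5 FPKM in every *Xu142fl* library and 0 in every Xu142 library. The intervals of the 2 lines overlapped in each class of level, least at 1 to 2 FPKM, where they shared only 0.394% to 0.432%. In that class the share with the lines exchanged was 0.247% (12 of 4850), beside 0.565%. Overlap of intervals is not a test of a difference between the lines, and no such test was made. The intervals treat genes as independent, which neighbouring or duplicated genes are not.

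**Figure D2:**
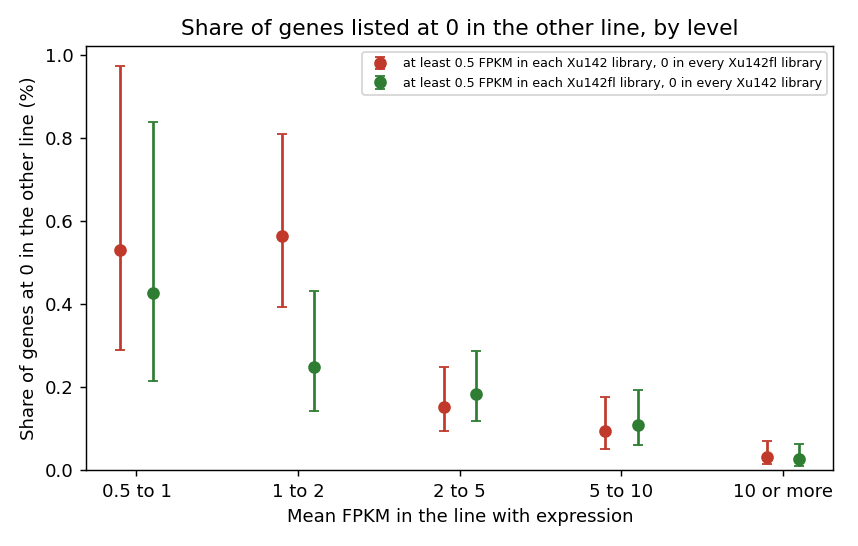
Share of genes, in percent, listed at 0 in every library of the other line, by mean FPKM in the line with expression, for genes with at least 0.5 FPKM in each library of Xu142 (red) or *Xu142fl* (green). Points are shares and bars 95% Wilson intervals, and in Xu142 the share was 0.565% at 1 to 2 FPKM and 0.0317% from 10 FPKM.

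Predicted new genes made up 38.0% of the 71 (27 genes, 95% Wilson interval 27.6 to 49.7). They were 8.42% of the whole table and 9.32% of the 46891 genes with at least 0.5 FPKM in every Xu142 library (interval 9.06 to 9.59). Among the 55 genes detected in *Xu142fl* only, 25 were predicted (45.5%, interval 33.0 to 58.5), so the high share was found in both directions. Predicted genes were assembled from reads of these libraries, whereas annotated genes come from the TM-1 annotation. The part of this origin in the share was not tested. The share depended on the lower limit, and was 20% of the 165 genes that met a limit of 0.1 FPKM.

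Of the 43 genes placed on chromosomes, 23 lay in the D subgenome (53.5%, 95% Wilson interval 38.9 to 67.5) and 20 in the A subgenome. The D subgenome held 51.4% of the placed genes of the table, a share inside that interval. The median mean level was 2.58 FPKM for the A genes and 1.72 FPKM for the D genes, with ranges of 0.647 to 91.8 and 0.640 to 38.7 that overlapped nearly throughout. Gh_A13G1728 and Gh_A05G1426 were the A genes of 10 FPKM or more, and Gh_D12G1439, Gh_D04G0240 and Gh_D07G2461 the D genes. The files do not pair homoeologs, so whether the other copy of a gene was expressed in *Xu142fl* was not analysed here.

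The 43 genes were scattered over 18 of the 26 chromosomes. Chromosome A05 held 5 of them (1.39 per 1000 listed genes). A13, D03 and D12 held 4 each (1.89, 2.44 and 1.60 per 1000). D02, D07 and D08 held 3 each, 6 chromosomes held 2, and 5 held 1. A01, A03, A04, A09, D01, D09, D10 and D13 held 0. The whole genome had 0.737 per 1000 placed genes. By ID number, 10 of the 43 (23.3%) lay in the outer 10% at either end of their chromosome, where 19.9% of all placed genes lay. The rule left out the stretches around MML3, so no member could lie there, and 0 of the genes listed there met both limits. Of the 4 genes on D12, Gh_D12G1439 was the nearest to MML3, below the left-out stretch. Gh_D12G0798, Gh_D12G0820 and Gh_D12G2128 lay farther off.

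**Figure D3:**
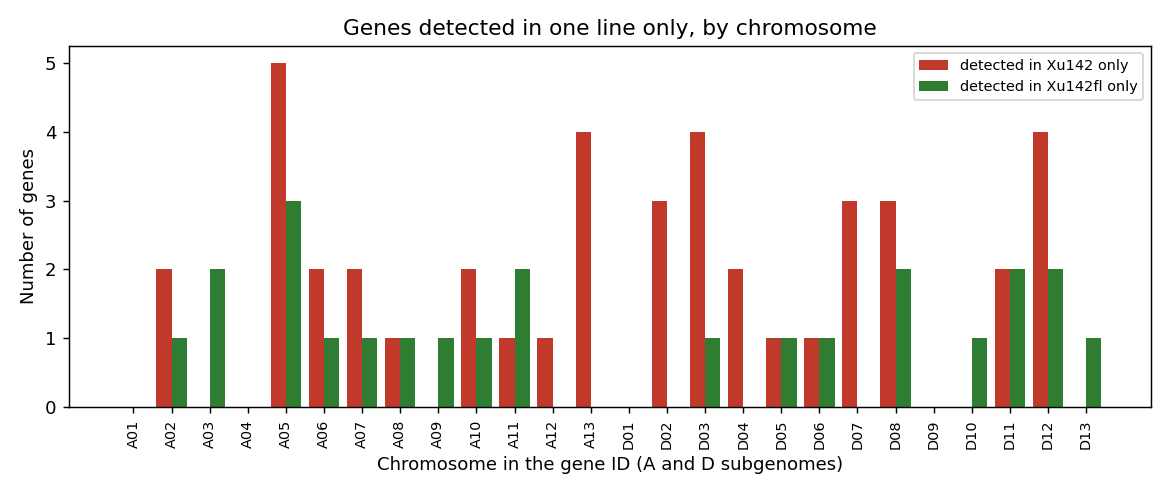
Number of genes on each chromosome of the A and D subgenomes that were detected in Xu142 only (red) or in *Xu142fl* only (green), by the same limits. The 43 placed Xu142-only genes fall on 18 chromosomes, with 5 on A05 and 4 each on A13, D03 and D12.

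Gh_D08G0735 and Gh_D12G0820 were listed with the same values in all 6 libraries, 1.10, 0.60 and 1.36 FPKM in Xu142 and 0 in *Xu142fl*. The rule fixes the values of 0, so these IDs could differ in Xu142 only. They were picked out after their values were seen. RSEM, the program that estimated expression, divides reads that fit several genes, so the level of either ID is uncertain. Of the 52749 genes that reached 0.5 FPKM in a library, 323 (0.612%) shared all 6 values with another gene. This share is not limited to genes at 0 in a line, so it is not a like measure for members. Both IDs are counted among the 71, on their chromosomes and in the distances between members.

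Positions could be compared for the 43 placed genes only. Between neighbouring members on a chromosome the median distance was 369 ID steps over 25 intervals, and the largest was 2380. Only Gh_A13G1727 and Gh_A13G1728 had directly adjacent IDs, so 2 of the 43 placed genes (4.65%) had another of them within 5 IDs, where 0.632% of all placed genes of the table had one. The next closest were Gh_D03G1570 and Gh_D03G1576 at 6 steps, followed by Gh_D12G0798 and Gh_D12G0820 at 22 steps. No run of 3 or more members was found on a chromosome.

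Among the predicted genes, BGI_novel_G002241 (1.60, 0.56 and 1.28 FPKM in Xu142), BGI_novel_G002242 (1.69, 1.01 and 2.15 FPKM) and BGI_novel_G002243 (1.18, 1.22 and 1.41 FPKM) had consecutive numbers. They were picked out after their values were seen. The number before them, BGI_novel_G002240, had 1.52, 0.97 and 1.45 FPKM in Xu142 and 0.85, 1.39 and 1.87 FPKM in *Xu142fl*, and the number after them, BGI_novel_G002244, had 1.31, 1.94 and 0.63 FPKM and 2.05, 0.94 and 0.80 FPKM. Transcript was thus present in both lines at the number directly before and directly after the 3. Farther before them, BGI_novel_G002239 was at 0 in each Xu142 library and had 0.29, 1.27 and 3.25 FPKM in *Xu142fl*. BGI_novel_G002238 was likewise at 0 in Xu142 and had 0.86, 3.86 and 2.56 FPKM in *Xu142fl*. Farther after them, BGI_novel_G002245 and BGI_novel_G002246 were above 0 in every library of both lines. Whether these numbers follow the order along a chromosome is not given in the sources used here. The remaining 24 predicted genes had no other member within 20 numbers. At a distance of 1 number, 11.1% of the 27 predicted members had another one, beside 0.955% of all predicted genes. Within 20 numbers the shares were 11.1% and 17.1%.

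The genes beside the 43 placed members were not used to choose them, and they were compared between the lines. The nearest listed gene that was not a member on each side gave 84 flanking genes. Of these, 65 (77.4%) were above 0 in every *Xu142fl* library and 7 (8.33%) were at 0 in every one. Of all placed genes that are not members, the 84 included, 83.6% and 4.64% were. Among the 7, Gh_A05G1183 and Gh_D08G2545 averaged 0.317 and 0.467 FPKM in Xu142. The rest averaged at most 0.0267 FPKM there and were near 0 in both lines. In every Xu142 library 4 of the 84 were at 0, against 1817 of the 58323 placed genes that are not members. For 24 of the 43 members both flanking genes were above 0 in all 6 libraries, for 15 members 1 flanking gene was, and for 4 members neither was. The 4 include Gh_D04G0240, whose neighbours Gh_D04G0239 and Gh_D04G0241 had at most 0.02 and 0.06 FPKM in any library beside its own 13.23 to 16.18 FPKM in Xu142.

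Of the 84 flanking genes, 67 reached a mean of 0.1 FPKM and were tested with limma on log2(FPKM + 0.1), among 56395 genes. The call required an adjusted p (Benjamini-Hochberg, over all genes tested) no higher than 0.05 together with a change of 2-fold or more on this scale, which understates the change of weakly expressed genes. Lower expression in *Xu142fl* was called for 11 of the 67 flanking genes (16.4%), where 4.47% of all genes tested were called lower. The 11 include Gh_D08G2545, which was at 0 in each *Xu142fl* library and reached a mean of 0.1 FPKM through Xu142 alone. Higher expression was called by limma for 0 of the 67, where 1.67% of all genes were. At an unadjusted limma p under 0.05, 10 of the 67 were higher in *Xu142fl*, all under 2-fold, beside 7302 of all 56395 genes. At the same limit 16 of the 67 were lower, beside 9548 of the 56395. The median log2 fold change of the 67 was -0.03, beside 0.01 over all genes tested, with 38 values below 0 and 29 above. At an adjusted p of 0.05 or less and any fold, 12 of the 67 were lower (17.9%) and 6 higher (8.96%), beside 8.77% and 5.13% of all genes tested. The count depended on the libraries. It was 4 of 68 (5.88%) without Xu142 replicate 1 and again without Xu142 replicate 3, where 2.50% and 2.44% of all genes were called lower, and 7 of 68 (10.3%) without *Xu142fl* replicate 2, where 2.69% were. Beside the genes detected in *Xu142fl* only, 8 of 41 tested flanking genes were called higher in *Xu142fl* (19.5%) and 2 lower (4.88%). Of all genes tested, 1.67% were called higher and 4.47% lower. At any fold, 10 of these 41 were higher (24.4%) and 5 lower (12.2%), beside 5.13% and 8.77% of all genes tested.

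The most strongly reduced flanking gene was Gh_A07G0026, beside Gh_A07G0027 (3.83, 1.99 and 3.26 FPKM in Xu142). It had 12.18, 7.75 and 11.90 FPKM in Xu142 and 0.36, 0.50 and 0.62 FPKM in *Xu142fl*. The lines did not overlap, and the change was -4.17 in log2 (SE 0.26, adjusted p = 0.000286 in limma). Gh_A10G1994, beside Gh_A10G1995 (1.64, 2.78 and 2.26 FPKM in Xu142), had 5.86, 5.38 and 6.38 FPKM in Xu142 and 0.97, 1.10 and 1.42 FPKM in *Xu142fl*, a change of -2.25 in log2 (SE 0.19, adjusted p = 0.00087 in limma). These were the 2 flanking genes that passed the stricter limit of 0.001, as 0.555% of all genes did in the lower direction, and both remained called at 0.05 whichever of the 6 libraries was dropped.

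The other 9 called flanking genes lay beside 7 members, and they are named here after their values were seen. Gh_D07G2460 and Gh_D07G2462 lie on both sides of Gh_D07G2461. Gh_D07G2462 had 102.95, 65.11 and 84.94 FPKM in Xu142 and 26.11, 36.31 and 33.21 FPKM in *Xu142fl* (limma adjusted p = 0.00592), and like Gh_D07G2461 it was lowest in Xu142 replicate 2. Gh_D07G2460 had 2.50, 2.40 and 2.38 FPKM and 1.13, 1.01 and 1.14 FPKM (limma adjusted p = 0.00913). Gh_D03G1200 and Gh_D03G1202 likewise enclose the member Gh_D03G1201 (0.71, 1.66 and 1.02 FPKM in Xu142). Gh_D03G1200 had 54.11, 39.66 and 43.47 FPKM in Xu142 and 17.98, 16.40 and 20.02 FPKM in *Xu142fl* (limma adjusted p = 0.00213). Gh_D03G1202 had 2.34, 3.27 and 2.86 FPKM and 1.10, 0.88 and 0.37 FPKM (limma adjusted p = 0.0221). In both places the gene listed at 0 thus had a lower neighbour on each side that was still detected in every *Xu142fl* library.

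On single sides, Gh_D12G2129 had a mean of 2.70 ± 1.12 FPKM in Xu142 and of 0.283 ± 0.163 FPKM in *Xu142fl* (SD, n = 3), Gh_D11G3406 had 1.99 ± 0.322 and 0.303 ± 0.263, Gh_A08G1780 had 114.5 ± 31.2 and 37.6 ± 15.3, and Gh_A07G0378 had 92.4 ± 43.0 and 34.1 ± 8.37. Gh_D08G2545 had 0.29, 0.27 and 0.84 FPKM in Xu142 and was listed at 0 in each *Xu142fl* library, and missed membership by its Xu142 level alone. Its limma adjusted p was 0.0206, given as a description since the gene reached a mean of 0.1 FPKM only through its Xu142 values. The limma adjusted p of the other 4 ran from 0.0106 to 0.0452. Each of these 5 calls, and those of Gh_D03G1202 and Gh_D07G2460, was lost without Xu142 replicate 1 and without Xu142 replicate 3.

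Within 5 listed genes on either side, 331 genes were tested, of which 26 (7.85%) were called lower and 4 (1.21%) higher by limma. Of all tested placed genes that are not members, the 331 included, 4.39% and 1.35% were. The 67 flanking genes, with 11 of the 26 lower calls, are among the 331. The 26 include Gh_D08G2545, Gh_D03G1574 and Gh_D03G1579, which reached a mean of 0.1 FPKM only through their Xu142 values. Strand is not stated to have been used in counting, so reads of genes that overlap cannot be told apart.

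**Figure D4:**
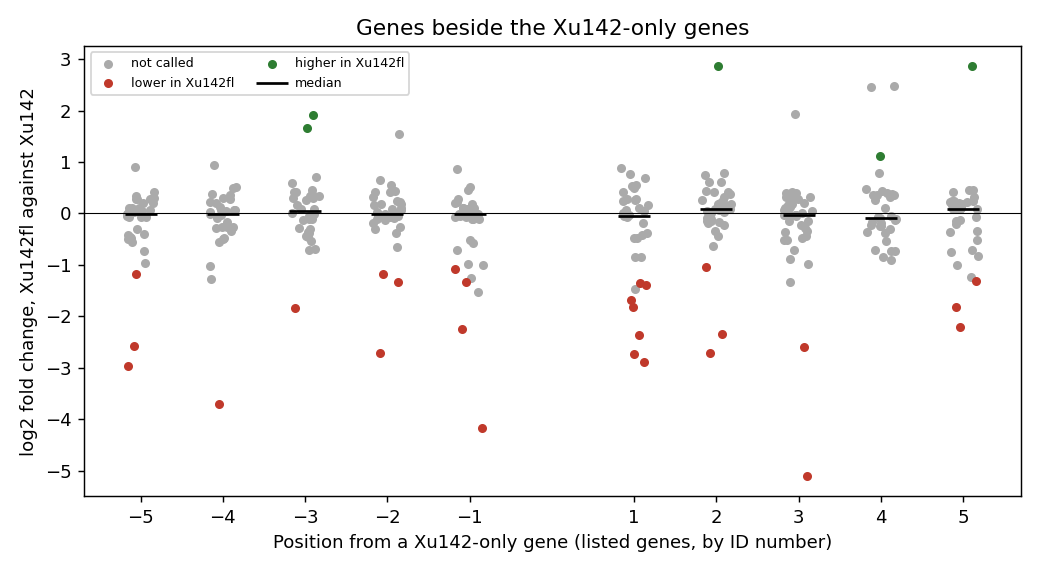
Log2 fold change (*Xu142fl* against Xu142, on log2(FPKM + 0.1)) of the tested genes at 1 to 5 listed places before and after each placed Xu142-only gene, with called genes in red (lower) and green (higher), other genes in grey and the median of each place as a black bar. Medians stay near 0 while 11 flanking genes are called lower and 0 higher, and a gene near several members is drawn once for each.

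The flanking genes of the most abundant members went in either direction. Both flanks of Gh_D07G2461 were called lower, as given above, and those of Gh_D04G0240 were too low to be tested. Beside Gh_A13G1727 and Gh_A13G1728, Gh_A13G1726 had 96.55, 71.20 and 90.06 FPKM in Xu142 and 68.92, 96.66 and 110.36 FPKM in *Xu142fl*, and the lines overlapped (limma adjusted p = 0.811). On the other side Gh_A13G1729 had 15.38, 14.51 and 14.14 FPKM and 8.13, 6.52 and 10.15 FPKM. Its change of -0.84 in log2 (SE 0.16, adjusted p = 0.0192 in limma) was under 2-fold. Beside Gh_D12G1439, Gh_D12G1438 had 3.40, 4.10 and 3.44 FPKM in Xu142 and 8.34, 6.15 and 5.92 FPKM in *Xu142fl*, a log2 fold change of 0.87 (limma adjusted p = 0.0204). This neighbour was higher in the line in which Gh_D12G1439 was at 0. On the other side Gh_D12G1440 had 4.07, 3.43 and 3.56 FPKM and 3.98, 3.91 and 5.88 FPKM, and the lines overlapped (limma adjusted p = 0.366). Beside Gh_A05G1426, Gh_A05G1427 had 5.50, 5.83 and 5.76 FPKM and 8.63, 9.42 and 9.86 FPKM, a log2 fold change of 0.70 (limma adjusted p = 0.00821), under 2-fold. On the other side Gh_A05G1425 had 0.69, 0.36 and 0.66 FPKM and 0.04, 0.19 and 0.18 FPKM, a log2 fold change of -1.53 that did not pass (limma adjusted p = 0.0578). The flanks of Gh_A05G1426 thus had values on opposite sides of 0, and neither was called. Gh_A06G0426, beside Gh_A06G0425, had 111.40, 92.06 and 106.97 FPKM and 88.49, 111.44 and 128.54 FPKM, with no separation of the lines (limma adjusted p = 0.794).

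Several differing genes lay around Gh_D03G1570 and Gh_D03G1576, a stretch picked out after the values were seen. Gh_D03G1570 had 1.71, 0.89 and 1.81 FPKM in Xu142, and Gh_D03G1576 had 0.63, 0.96 and 0.85 FPKM. Between them Gh_D03G1574 had 0.54, 0.68 and 0.72 FPKM in Xu142 and 0, 0.02 and 0.02 FPKM in *Xu142fl* (log2 fold change -2.72, standard error 0.32, limma adjusted p = 0.00346). Past them Gh_D03G1579 had 7.01, 3.81 and 7.28 FPKM in Xu142 and 0, 0.20 and 0.07 FPKM in *Xu142fl* (log2 fold change -5.10, standard error 0.46, limma adjusted p = 0.00121). These genes were lower or at 0 in *Xu142fl*, whereas Gh_D03G1578, directly before Gh_D03G1579, went the other way. Gh_D03G1574 and Gh_D03G1579 reached a mean of 0.1 FPKM only through their Xu142 values, so their adjusted p is given as a description.

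Gh_D03G1578 had 3.62, 2.76 and 3.72 FPKM in Xu142 and 19.12, 24.91 and 32.23 FPKM in *Xu142fl*, a change of 2.86 in log2 (SE 0.21, adjusted p = 0.000589 in limma). At the ends of the group the values of the lines overlapped. Gh_D03G1567 had 10.65, 9.61 and 10.76 FPKM in Xu142 and 9.71, 10.94 and 10.23 FPKM in *Xu142fl*, and Gh_D03G1580 had 1.67, 1.64 and 1.87 FPKM and 1.68, 2.72 and 2.89 FPKM. Reduced, raised and overlapping genes thus lay within 14 ID numbers. Among them Gh_D03G1571, Gh_D03G1575 and Gh_D03G1577 were near 0 in both lines, with at most 0.02, 0.04 and 0.1 FPKM in any library.

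**Figure D5:**
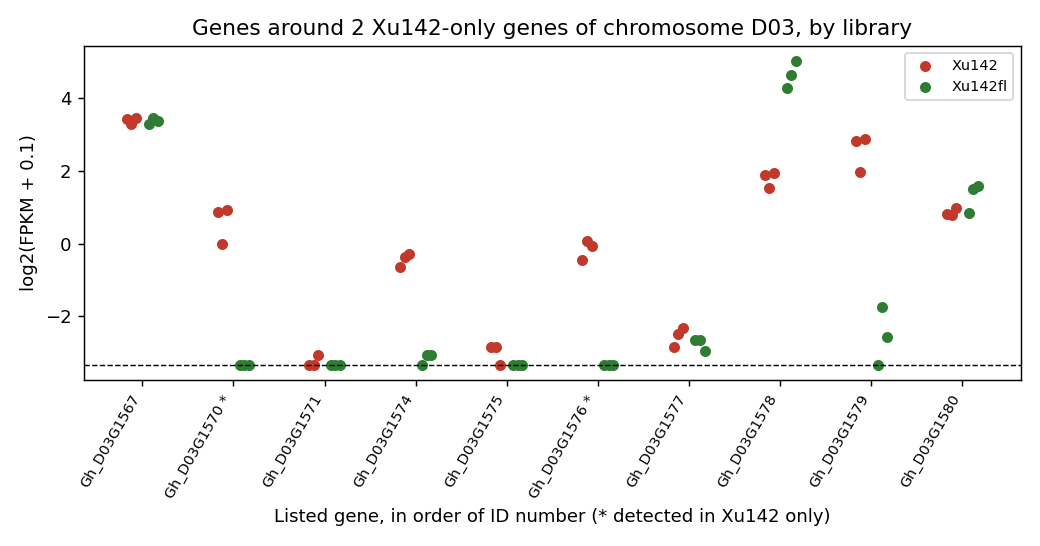
Log2(FPKM + 0.1) of the listed genes from Gh_D03G1567 to Gh_D03G1580 in each Xu142 (red) and *Xu142fl* (green) library, in order of ID number, with an asterisk on the 2 Xu142-only genes and a dashed line at 0 FPKM. Gh_D03G1579 is at most 0.20 FPKM in *Xu142fl*, while Gh_D03G1578 lies between 19.12 and 32.23 FPKM there against 2.76 to 3.72 FPKM in Xu142.

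A second group lay around Gh_D08G2543, which had 1.24, 1.55 and 2.37 FPKM in Xu142. After it came Gh_D08G2545, and then Gh_D08G2546 with 29.78, 23.33 and 29.51 FPKM in Xu142 and 3.22, 6.37 and 7.37 FPKM in *Xu142fl* (log2 fold change -2.34, standard error 0.30, limma adjusted p = 0.0044). Gh_D08G2547, the next listed gene, had 2.21, 1.07 and 1.93 FPKM and 1.39, 1.80 and 1.77 FPKM, and the lines overlapped (limma adjusted p = 0.977). The 3 successive listed genes Gh_D08G2543, Gh_D08G2545 and Gh_D08G2546 thus ranged from 0 to a reduced but detected level in *Xu142fl*.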

How the data were processed

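RNA of mixed ovules was sequenced by the authors on BGISEQ-500 and filtered. New transcripts were reconstructed with HISAT2 and StringTie, known genes were matched by Bowtie2 on the TM-1 genome, and RSEM gave the expression estimates. The authors deposited FPKM values with 2 decimals and no read counts. FPKM scales by library size. Whether counting used strand is not given in the sources used here.

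Members and lists were chosen with earlier results of these data known. Limma 3.58.1 (R 4.3.3) was fitted on log2(FPKM + 0.1), trend on, to genes whose mean reached 0.1 FPKM, and p-values were adjusted by Benjamini-Hochberg. It was tested on simulated data. DEGseq, which the paper used, needs counts and was not run. No 2 libraries had more than 2.06% identical values. Named genes are the 10 highest annotated and 5 highest predicted members, those with extreme CV, those at the limits, flanking genes called at 0.001, members of any run of 3 or more, MML3 and MML4. The cell division genes given below were taken from the supplementary list of the paper. All other genes named were chosen after their values were seen. Among cell division genes, MCM6 (Gh_A03G0403) averaged 51.3 ± 3.07 FPKM in Xu142 against 105.4 ± 8.96 FPKM in *Xu142fl* (SD, n = 3). MCM6, DNA2 and both PCNA genes are not members. Both MML3 genes and MML4 lie in the stretches that the rule left out, so they could not be members. Alternatives covered the limits of the rule, pseudocounts, filters, scaling, trend, the block by replicate number, and dropping each library. Tables and plots used Python 3.11.15 with scipy 1.17.1, numpy 2.4.6, matplotlib 3.10.9 and pandas 2.3.3.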

Additional observations from a re-analysis of the deposited data

How the results depend on the processing

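The number of Xu142-only genes was 165 at a lower limit of 0.1 FPKM, with 20% predicted genes, and lay between 76 and 99 when a library was left out of the rule. It was 130 without Xu142 replicate 2 and *Xu142fl* replicate 1 together, an alternative chosen after seeing the data. Fewer libraries loosen the rule by construction. With a library left out, predicted genes were 33.3% to 40.2%, D genes 50.0% to 59.3%, and genes with another member within 5 IDs 3.45% to 4.35%. The last share, 4.65% with all libraries, was 7.41% at a lower limit of 1 FPKM, 9.09% with up to 0.05 FPKM allowed in *Xu142fl*, and 2.50% without both libraries. Over all genes, the counts were 940 higher and 2523 lower, and became 485 and 1430 with a pseudocount of 1. Leaving out a library gave 455 to 1600 higher and 1375 to 3009 lower. Without the 2 libraries named above, 1488 were higher. Leaving out a library gave 4 to 11 lower flanking genes, beside 11 with all libraries, and 0 higher ones under every alternative run. With a replicate block the counts were 505 higher and 1543 lower, and 6 flanking genes were lower (8.96% against 2.74% of all genes). Whether same-numbered libraries were paired is not given in the sources used here. Deviations of same-numbered libraries had r of -0.25, -0.23 and 0.14, and Xu142 replicate 2 went most closely with *Xu142fl* replicate 1 (r = 0.40). With 3 libraries per line, these values cannot decide whether the samples were paired. The cause of these shifts was not tested. Without read counts, depth limits on values of 0 are unknown.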
